A study of Mus musculus with 16 samples.

Results

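The genes described here are 107 odorant receptor genes of mouse chromosome 7 that lie outside the class I receptor cluster of that chromosome. The rule that chose them uses name and position alone: symbols made of Olfr and a number, with a probe set on chromosome 7, leaving out the numbers 543 to 692 and Olfr33, Olfr64 to Olfr69, Olfr78, Olfr243, Olfr2, Olfr6 and Olfr17. The choice was made with earlier results of these data known. These genes make up 107 of the 1091 olfactory receptors on the array and of its 19505 named genes. The label class II was checked against the receptors' older family names, in which MOR numbers up to 42 belong to class I and numbers from 100 to class II. By these names 105 of the 107 are class II receptors; Olfr503 (MOR34-12) and Olfr504 (MOR40-15) carry class I numbers, and neither passed any test below.

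The study used 24 mice of both sexes, 7 to 12 weeks old, all carrying the S100a5-tauGFP reporter, so the clean-air controls carry it too. Mice were kept singly for 40 h in chambers with air flowing at 3.1 L per min, and from 26 h on they received either octanoic acid or filtered air as the vehicle for 10 s every 20 min. The olfactory mucosa of 3 mice formed 1 pool, and flow cytometry parted its GFP+ cells from its GFP- cells, which gave 4 pools per treatment and 4 groups of 4 Clariom S arrays: clean air GFP+, clean air GFP-, octanoic acid GFP+ and octanoic acid GFP-. The sex make-up of each pool, the strain background and how the reporter was inserted are not given in the sources used here. The precision of every value is limited by 4 pools per treatment.

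Odorant receptors are G protein-coupled receptors, and each olfactory sensory neuron transcribes a single receptor gene from a single allele. The receptor signals through the G protein subunit encoded by Gnal and the adenylyl cyclase Adcy3 to a cyclic-nucleotide-gated channel, and the receptor that a neuron has chosen also sets its spontaneous activity. Class II receptors are the large tetrapod class and sit in clusters across many chromosomes, whereas class I receptors sit on chromosome 7 and include receptors of carboxylic acids, the chemical group that octanoic acid belongs to. S100a5 encodes a calcium-binding protein whose transcription rises with activity in sensory neurons, and S100a5-driven GFP therefore marks neurons by their activity.

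Values are log2 signals. A receptor's enrichment is its log2 signal in the GFP+ cells minus that in the GFP- cells of the same pool, and each mean is given with the SD over 4 pools. The test was limma on these within-pool differences of all 19505 genes, with Benjamini-Hochberg adjustment over all of them and a threshold of 0.05. Negative-control probe sets had a median of 6.20 log2, which serves as the background. Their 95th percentile was 10.4 log2, so a signal above the background need not come from expression. A fold is a lower bound, written with "at least", if the dimmer group's mean lay below the background or within 1 SD above it. If that held for both groups, no fold is stated. Signals of different receptors come from different probe sets and are not set against each other. In these bulk samples fewer neurons that chose a receptor and less receptor RNA per neuron cannot be told apart.

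Under clean air most of the chromosome 7 class II receptors that differed between the sorted samples were brighter in the GFP+ cells. The GFP+ signal was higher for 52 of the 107 receptors (48.6%) and lower for 15 (14.0%), with a median enrichment of 0.82. Over all genes tested 5.83% were higher and 9.58% lower, and the median was 0.11. Among the 984 other olfactory receptors 36.4% were higher and 24.4% lower, with a median of 0.38. In the octanoic acid pools, which came from other mice, 54 of the 107 (50.5%) were higher and 17 (15.9%) lower, with a median of 0.75, against 6.26% higher and 10.9% lower over all genes. Of the receptors higher under clean air 94.2% were also higher with octanoic acid, and 49 were higher and 14 lower under both treatments. No receptor was called in opposite directions, and 32 passed the test under neither treatment. Olfr697, Olfr700 and Olfr524 were called higher and Olfr301 lower under clean air alone. With octanoic acid alone Olfr715, Olfr716, Olfr478, Olfr492 and Olfr516 were called higher and Olfr704, Olfr714 and Olfr484 lower. None of these 12 passed the test of the difference between treatments given below, and 9 of them lost their call when some single pool was left out; Olfr524, Olfr704 and Olfr484 did not.

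The median enrichment of the 107 receptors was 1.11, 0.91, 0.46 and 1.28 in the clean-air pools and 0.94, 1.04, 0.47 and 0.77 in the octanoic acid pools, and in each pool it lay above the median of the other receptors. The GFP+ array of the third octanoic acid pool and the GFP- array of the fourth clean-air pool had the highest backgrounds, 6.71 and 6.77 log2. Without those 2 pools 49 receptors were higher and 15 lower under clean air, and 50 higher and 12 lower with octanoic acid. Of all 19505 genes 681 were then higher and 1551 lower under clean air, and 821 higher and 1814 lower with octanoic acid. Across the 107 receptors the mean enrichments of both treatments correlated with Pearson's r of 0.972 and Spearman's rho of 0.958, a description over genes that share their arrays. Of the receptors called higher, 30 under clean air and 26 with octanoic acid had a fold, or a lower bound of it, over 4, as did 5 and 7 of those called lower. Over all 16 arrays 90 receptors had a mean above the background and 17 did not; among those 17, 2 were higher and 2 lower under clean air. Centring each array on its median moved the median of all genes from 0.11 to 0.38 under clean air and to 0.42 with octanoic acid, and the counts of higher and lower receptors from 52 and 15 to 66 and 15, and from 54 and 17 to 67 and 15. The rise was not particular to these receptors. Among all 19505 genes the counts of higher and lower genes went from 1138 and 1868 to 6082 and 1571 under clean air. With octanoic acid they went from 1221 and 2126 to 7791 and 1715.

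**Figure D1:**
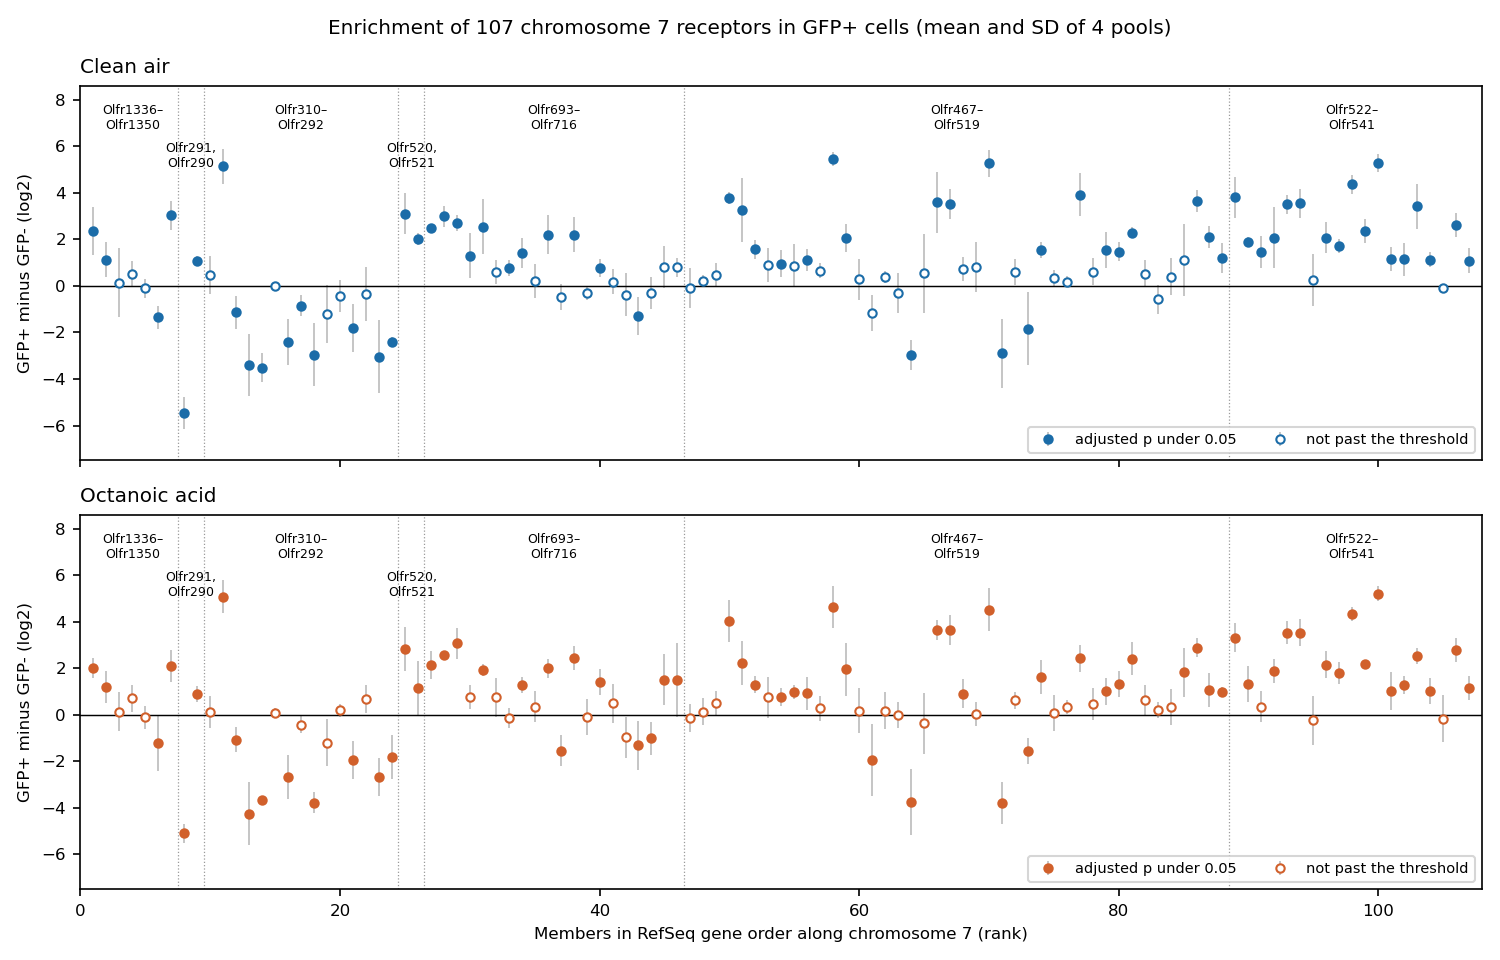
Mean enrichment (log2 GFP+ minus log2 GFP-, y axis) of the 107 receptors in their order along chromosome 7 (x axis, rank), under clean air (upper panel) and octanoic acid (lower panel). Points are means and bars SDs of 4 pools, filled points passed the limma test at an adjusted p of 0.05, and dotted lines part the 7 blocks; the block from Olfr310 to Olfr292 lies mostly below 0 and the block from Olfr522 to Olfr541 mostly above it.

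The balance of higher and lower receptors was not the same in every stretch of the chromosome. In gene order the 107 receptors fall into 7 blocks parted by more than 0.5 Mb between neighbouring members, and counts per block describe these data without a test of the block. Over all 107 receptors 48.6% were higher and 14.0% lower under clean air, and 50.5% and 15.9% with octanoic acid. Over all genes these shares were 5.83% and 9.58%, and 6.26% and 10.9%. The block that runs from Olfr522 to Olfr541 and includes Olfr45, Olfr46, Olfr53, Olfr60 and Olfr61 held 19 receptors, of which 17 were higher and 0 lower under clean air, and 16 higher and 0 lower with octanoic acid. Its median enrichment was 2.08 and 1.89. The receptors of this block that passed no test under either treatment were Olfr530 at 0.26 ± 1.11 under clean air and Olfr539 at -0.10 ± 0.10. The block from Olfr310 to Olfr292 ran the other way: of its 15 receptors 1 was higher and 9 lower under clean air, and 1 higher and 8 lower with octanoic acid, with a median of -1.21 under both.

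Members of the MOR251, MOR252 and MOR253 families fill most of the block from Olfr522 to Olfr541. Olfr536 (MOR252-1) read 14.31, 14.92, 13.89 and 14.53 on the clean-air GFP+ arrays and 9.46, 9.72, 8.52 and 8.73 on the GFP- arrays of the same pools. The octanoic acid pools gave 14.82, 13.59, 12.70 and 14.11 for GFP+ and 9.78, 7.95, 7.79 and 8.92 for GFP-. All GFP+ arrays lay above all GFP- arrays, and the enrichment of 5.31 ± 0.39 under clean air is 39.5-fold (limma adjusted p = 1.22e-08). With octanoic acid its enrichment was 5.19 ± 0.32. Olfr533 (MOR252-3P, the P marking a gene once listed as a pseudogene, although RefSeq gives it as protein-coding) rose by 4.37 ± 0.41 under clean air and 4.33 ± 0.31 with octanoic acid. Olfr522 (MOR103-5), which opens the block, read 15.93, 15.997, 16.23 and 16.04 in clean-air GFP+ cells against 13.04, 12.77, 11.83 and 11.31 in GFP- cells. That is 14.1-fold under clean air, and 9.87-fold with octanoic acid, again without overlap between the sorted samples.

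All 5 receptors of the MOR251 family were higher in GFP+ cells under both treatments, between 1.73 and 5.15 under clean air. In MOR253 the count was 8 of 9 under both treatments, Olfr539 being the receptor without a call, and in MOR252 it was 2 of 3. Olfr309 (MOR251-4P) is the MOR251 receptor that lies away from the others, in the block from Olfr310 to Olfr292, and it is the only receptor of that block called higher. It read 15.40, 15.92, 15.40 and 15.23 on the clean-air GFP+ arrays and 9.61, 11.55, 10.76 and 9.43 on the GFP- arrays. The octanoic acid arrays read 15.38, 15.64, 15.72 and 15.90 for GFP+ and 10.26, 9.61, 10.91 and 11.57 for GFP-. The sorted samples did not overlap, and Olfr309 rose by 5.15 ± 0.75, or 35.5-fold, under clean air and by 5.07 ± 0.72 with octanoic acid (limma adjusted p = 2.98e-07 and 3.10e-07). MOR104 is split between the same blocks: Olfr308 and Olfr303 among the falling receptors fell by 1.13 and 2.41 under clean air, and Olfr523 in the rising block rose by 1.91 ± 0.21. With octanoic acid these values were -1.08 ± 0.53, -2.68 ± 0.95 and 1.32 ± 0.78, and all 3 receptors passed the test under both treatments. The calls of Olfr308 were lost without the first or the fourth clean-air pool and without the first or the fourth octanoic acid pool. These members were picked out after their values were seen.

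**Figure D2:**
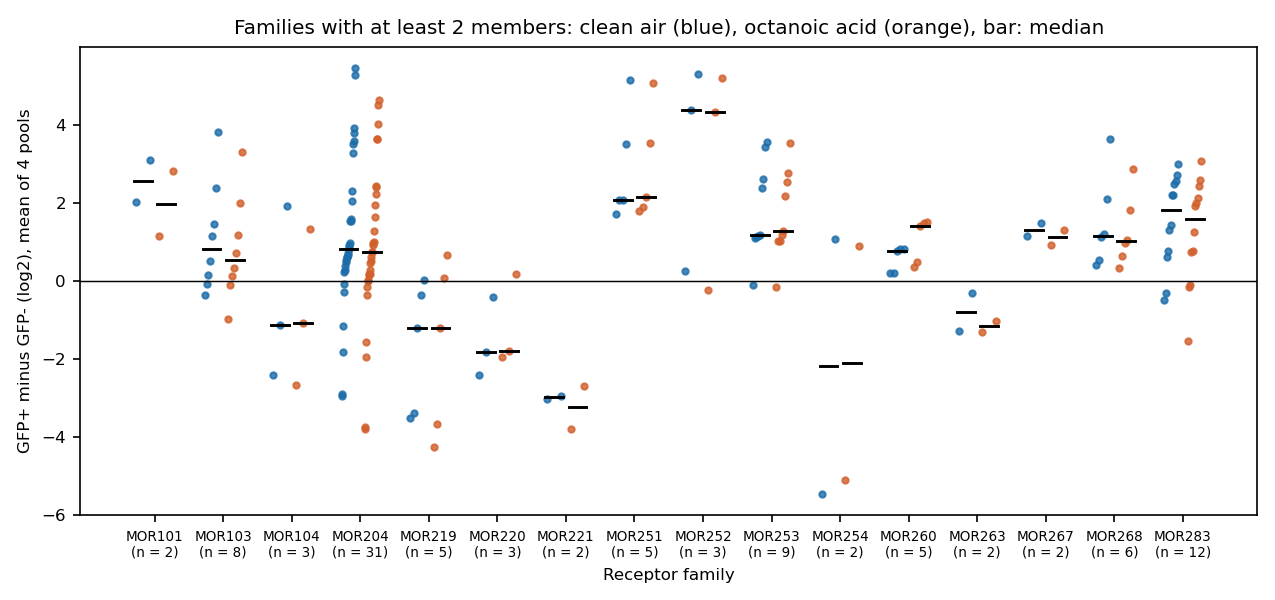
Mean enrichment (log2 GFP+ minus log2 GFP-, y axis) of each receptor by MOR family (x axis, families with at least 2 members), clean air in blue and octanoic acid in orange, each point the mean of 4 pools and each bar the family median. MOR101, MOR251, MOR252, MOR253, MOR267, MOR268 and MOR283 have medians above 1 under both treatments. MOR104, MOR219, MOR220, MOR221 and MOR254 have medians below -1 under both, although MOR104 and MOR254 each also hold a receptor called higher. MOR204 spreads from -2.97 to 5.45 under clean air.

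Between Olfr310 and Olfr292 the falling receptors belong mainly to MOR219, MOR220 and MOR221. None of the 10 receptors of these families was higher under either treatment, and 2 of 5, 2 of 3 and 2 of 2 were lower under both. Olfr305 (MOR219-2) read 6.04, 6.27, 6.36 and 5.97 in clean-air GFP+ cells, which is at the background, against 10.29, 9.19, 10.13 and 9.07 on the GFP- arrays. The octanoic acid arrays read 6.31, 5.84, 7.0 and 6.20 for GFP+ and 10.14, 9.53, 10.50 and 9.85 for GFP-. The GFP- signal was at least 10.6-fold above that of GFP+ cells under clean air and at least 12-fold above it with octanoic acid. Its neighbour Olfr307 (MOR219-1) had enrichments of -3.39 ± 1.35 and -4.26 ± 1.35 under clean air and octanoic acid. In MOR221, Olfr299 stood at -2.95 ± 1.34 and -3.79 ± 0.45, and Olfr293 at -3.04 ± 1.58 and -2.69 ± 0.82. All 3 read below the background on every GFP+ array, so their folds are lower bounds, between at least 1.7-fold and at least 6.2-fold with octanoic acid. For Olfr292 (MOR220-2) the GFP- signal was at least 3.22-fold the brighter under clean air and at least 2.53-fold with octanoic acid. Olfr310 and Olfr294 of this block stayed at the background in both sorted samples, and neither passed a test.

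Olfr291 (MOR254-2), which forms a block of its own with Olfr290 (MOR254-1), fell while the means of both of its sorted samples lay above the background. Olfr291 read 8.52, 8.66, 8.51 and 6.31 on the clean-air GFP+ arrays and 13.74, 13.36, 14.08 and 12.67 on the GFP- arrays. The value of 6.31 lay below the background of its own array, 6.44. The octanoic acid arrays read 8.90, 9.0, 9.32 and 7.46 for GFP+ and 14.09, 13.84, 14.05 and 13.10 for GFP-, so no arrays of the sorted samples overlapped. The enrichment was -5.46 ± 0.70 under clean air (limma adjusted p = 5.71e-08), which puts GFP+ cells 44.1-fold below GFP- cells, and -5.10 ± 0.41 with octanoic acid, 34.3-fold below them. All GFP+ values of Olfr291 lay below 10.4 log2, the 95th percentile of the negative controls, so they need not reflect expression of Olfr291. Olfr290, of the same family and next to it in the gene order, rose by 1.08 ± 0.23 under clean air, 2.11-fold, and by 0.90 ± 0.35 with octanoic acid. Its clean-air GFP+ arrays read 12.72, 13.27, 13.50 and 12.55 and its GFP- arrays 11.43, 12.49, 12.48 and 11.34, so each pool showed the rise while the sorted samples came close to each other.

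**Figure D3:**
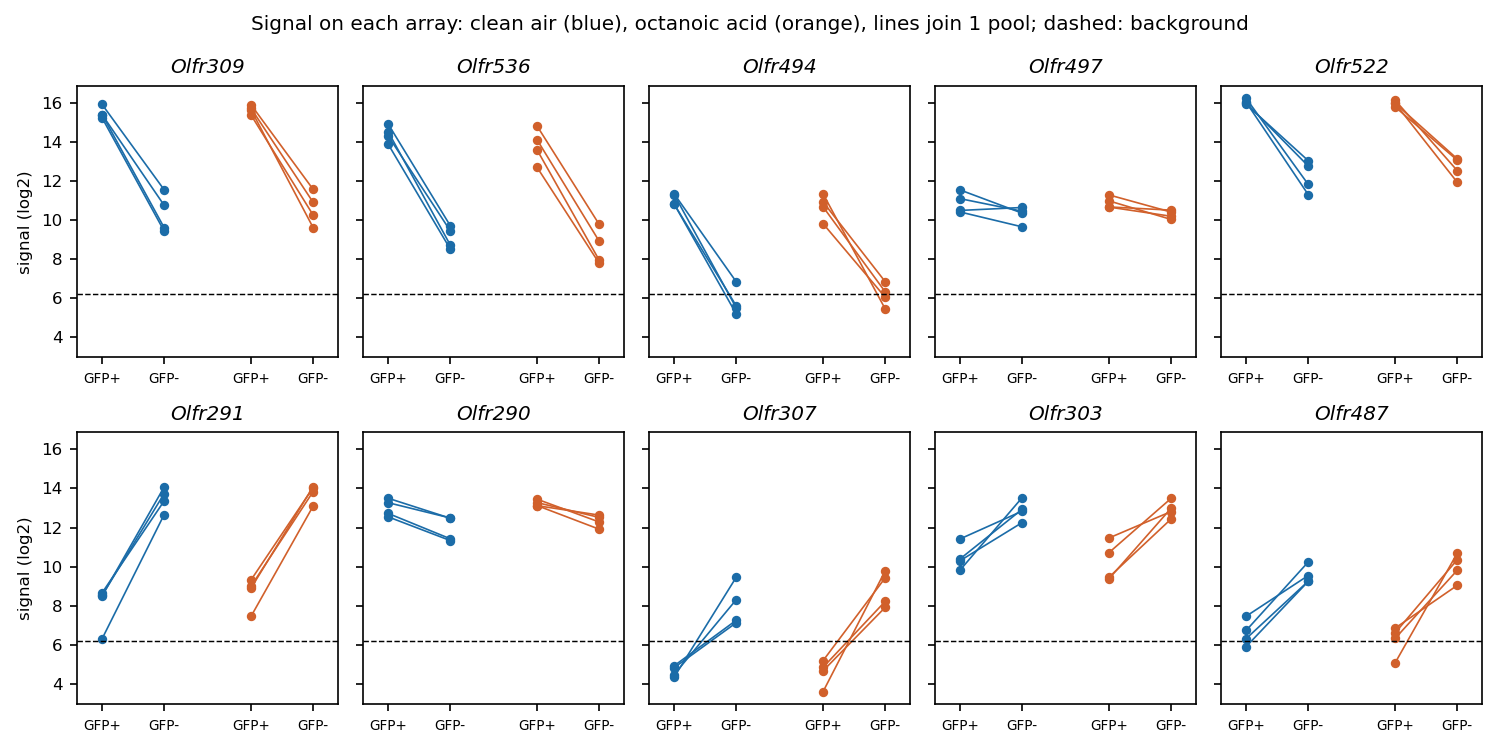
Log2 signal (y axis) of 10 receptors on each of the 16 arrays, clean air in blue and octanoic acid in orange, with lines joining the GFP+ and GFP- arrays of 1 pool and the background of 6.20 dashed. Olfr309, Olfr536, Olfr494 and Olfr522 fall from GFP+ to GFP- in every pool, Olfr291, Olfr307, Olfr303 and Olfr487 rise in every pool, and Olfr497 stays within about the same range.

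Olfr520 and Olfr521, the MOR101 receptors, form a pair-sized block and were both higher in GFP+ cells under both treatments, with enrichments of 3.11 ± 0.88 and 2.02 ± 0.24 under clean air and 2.82 ± 0.95 and 1.15 ± 1.15 with octanoic acid. Without the first or the second octanoic acid pool, or the fourth clean-air pool, 1 of them remained called with octanoic acid. In the block of 20 receptors from Olfr693 to Olfr716, 10 were higher and 1 lower under clean air and 10 higher and 3 lower with octanoic acid. Its share of higher receptors, 50.0% under both treatments, lay near the 48.6% and 50.5% of all 107 receptors. Its MOR283 family accounted for 9 of the higher ones under clean air, among them Olfr695 (MOR283-6), which read 14.26, 14.96, 14.44 and 13.91 in clean-air GFP+ cells and 12.06, 11.997, 11.68 and 10.98 in GFP- cells. Olfr695 rose by 2.71 ± 0.36 under clean air and by 3.07 ± 0.67 with octanoic acid, and its sorted samples did not overlap. The receptor called lower under both treatments was Olfr713 (MOR263-1), at -1.29 ± 0.80 and -1.32 ± 1.04, and leaving out the first, the second or the third clean-air pool left 0 receptors lower there under clean air. Of the 5 MOR260 receptors, beside it, 1 was higher under clean air and 3 with octanoic acid. With octanoic acid the 3 lower receptors became 1 without the third octanoic acid pool.

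The block of Olfr1336, Olfr1346, Olfr5 and Olfr1347 to Olfr1350 held 7 receptors, of which 3 were higher and 1 lower under both treatments. Olfr1336 (MOR103-7) rose by 2.38 ± 1.03 under clean air and 2.00 ± 0.44 with octanoic acid, and Olfr1350 (MOR222-3) by 3.04 ± 0.62 and 2.11 ± 0.69. The lower receptor was Olfr1349 (MOR232-8), at -1.35 ± 0.48 and -1.22 ± 1.19. Its call did not hold under clean air without the first, the second or the third clean-air pool, nor with octanoic acid without the first or the third octanoic acid pool, without the first clean-air pool or with each array centred on its median: the block then held 0 lower receptors. Olfr1346 (MOR103-6), the other higher receptor, lost its call under clean air without the first or the fourth clean-air pool, and with octanoic acid without the first or the fourth octanoic acid pool. Olfr1347 and Olfr1348 passed no test, with enrichments of 0.50 ± 0.56 and -0.09 ± 0.41 under clean air.

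The largest block, 42 receptors from Olfr467 to Olfr519, spanned mean enrichments from -2.97 to 5.45 under clean air. In it 18 receptors were higher and 3 lower under clean air, and 21 higher and 4 lower with octanoic acid. Centring each array on its median raised the block's higher count under clean air from 18 to 29, and that of all 19505 genes from 1138 to 6082. The block contains all 31 MOR204 receptors, of which 13 were higher and 3 lower under clean air and 15 higher and 4 lower with octanoic acid. Olfr481 (MOR204-2) read 11.51, 11.23, 10.46 and 10.72 in clean-air GFP+ cells and 5.66, 5.79, 5.02 and 5.63 in GFP- cells, the latter below the background on every array. Its log2 difference of 5.45 ± 0.31 (limma adjusted p = 1.26e-07) therefore stands for a rise of at least 27.5-fold, and with octanoic acid the difference was 4.63 ± 0.90. Olfr490 (MOR204-17) and Olfr491 (MOR204-11), which neighbour each other, rose by 3.59 ± 1.31 and 3.51 ± 0.64 under clean air and by 3.65 ± 0.44 and 3.64 ± 0.65 with octanoic acid. Outside MOR204 the block holds 11 receptors, of which 5 were higher and 0 lower under clean air. They include both MOR267 receptors, higher under both treatments, and the 6 MOR268 receptors, of which 3 were higher under clean air and 4 with octanoic acid. With octanoic acid the calls of Olfr516, Olfr518 and Olfr519 were each lost without 1 or 2 single octanoic acid pools. Olfr517 (MOR268-4), above the background in both sorted samples, stood at 3.65 ± 0.47 and 2.88 ± 0.40.

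Receptors of a family can be recent duplicates, and in MOR204 family members differed in direction, so the stretches in front of the coding sequences were compared. RefSeq (GRCm38.p6) has a sequence window for 96 of the 107 receptors, and for 75 of them the 250 bases end directly before the start codon. For the other receptors the window starts elsewhere and was not used. Over 2775 pairs the median identity was 51.4%, and 7 pairs shared at least 80%, the next pair sharing 79.9%. These windows are a neighbourhood of the coding exon and are not known promoters. Whether the array's probes separate the 2 genes of such a pair was not tested. The gap in enrichment within a pair also compares 2 probe sets. Its test below measures the spread over pools alone, so a difference between probe sets that repeats in every pool would also pass. Whether the probe sets differ in this way was not tested. The pairs were taken by sequence identity alone, but this measure was adopted after the values were seen.

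Of the pairs, 3 from MOR204 are shown, and these 3 were picked after the values were seen. They are not the 3 with the largest gaps in enrichment. Olfr527 and Olfr531, not shown, differed by 1.41 ± 0.35 over the 8 pools, against 1.16 ± 1.34 for Olfr472 and Olfr473. Each line gives the first 200 of the 250 bases, 5′ to 3′ on the receptor's strand, from 250 to 51 bases before the start codon, and capitals mark bases that differ from the aligned partner or face a gap. On GRCm38.p6 the windows lie at chr7:108367242-108367441 (+ strand) for Olfr494 and chr7:108422323-108422522 (+ strand) for Olfr497, at chr7:108212578-108212777 (- strand) for Olfr487 and chr7:108256187-108256386 (- strand) for Olfr488, and at chr7:107902469-107902668 (+ strand) for Olfr472 and chr7:107933272-107933471 (+ strand) for Olfr473.
Olfr494: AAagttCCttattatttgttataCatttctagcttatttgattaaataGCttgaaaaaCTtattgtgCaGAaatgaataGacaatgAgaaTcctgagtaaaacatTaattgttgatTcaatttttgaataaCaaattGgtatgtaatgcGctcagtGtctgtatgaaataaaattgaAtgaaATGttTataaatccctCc
Olfr497: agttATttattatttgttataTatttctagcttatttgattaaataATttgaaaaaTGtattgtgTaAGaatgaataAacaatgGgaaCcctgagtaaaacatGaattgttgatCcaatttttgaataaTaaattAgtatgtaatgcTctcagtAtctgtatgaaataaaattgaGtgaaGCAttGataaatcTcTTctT
Olfr487: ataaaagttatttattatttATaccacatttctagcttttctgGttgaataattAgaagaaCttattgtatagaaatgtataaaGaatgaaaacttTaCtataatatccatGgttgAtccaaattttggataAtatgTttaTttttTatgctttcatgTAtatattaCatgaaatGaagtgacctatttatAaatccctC
Olfr488: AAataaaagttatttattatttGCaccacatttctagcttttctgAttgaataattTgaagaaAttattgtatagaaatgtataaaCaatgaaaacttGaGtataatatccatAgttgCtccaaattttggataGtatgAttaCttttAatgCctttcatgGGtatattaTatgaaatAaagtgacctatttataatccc
Olfr472: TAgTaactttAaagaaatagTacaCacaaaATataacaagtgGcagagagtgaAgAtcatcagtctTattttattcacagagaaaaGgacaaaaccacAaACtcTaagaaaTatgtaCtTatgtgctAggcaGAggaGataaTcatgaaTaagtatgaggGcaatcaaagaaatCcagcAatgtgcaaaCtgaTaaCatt
Olfr473: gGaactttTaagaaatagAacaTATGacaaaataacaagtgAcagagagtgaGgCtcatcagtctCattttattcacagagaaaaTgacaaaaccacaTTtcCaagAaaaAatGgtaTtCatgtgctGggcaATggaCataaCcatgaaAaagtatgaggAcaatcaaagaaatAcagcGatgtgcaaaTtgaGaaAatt

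Olfr494 (MOR204-10) and Olfr497 (MOR204-9) share 86.2% of the aligned window. Olfr494 read 11.31, 11.35, 10.83 and 10.82 in clean-air GFP+ cells and 5.51, 6.85, 5.20 and 5.61 in GFP- cells, whereas Olfr497 read 11.10, 11.54, 10.49 and 10.42 for GFP+ and 10.45, 10.35, 10.65 and 9.65 for GFP-. The sorted samples of Olfr494 separated fully, at least 26.2-fold apart under clean air, while the arrays of Olfr497 overlapped and its enrichment of 0.61 ± 0.56 passed no test. The enrichment of Olfr494 minus that of Olfr497 was 4.29 ± 0.94 (SD) over the 8 pools and above 0 in 8 of 8 (exact two-sided sign-flip permutation test, p = 0.00781, adjusted over the 6 pairs tested 0.0156); 0.00781 is the smallest p that 8 pools allow. Since Olfr494 lay at the background in GFP- cells, the gap was also taken with every signal under the background set to it, which gave 3.89 ± 0.56, above 0 in 8 of 8 pools.

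Olfr487 (MOR204-29P) and Olfr488 (MOR204-15) share 88.1%. Olfr487 was lower in GFP+ cells, at 7.46, 6.31, 6.73 and 5.90 against 9.54, 9.25, 10.23 and 9.24 under clean air, and its enrichment was -2.97 ± 0.63. Olfr488 had pool differences of 1.08, 1.70, -1.97 and 1.36 under clean air and 0.62, 0.91, -1.32 and -1.66 with octanoic acid, so its direction varied between pools and it passed no test. The GFP+ signal of Olfr487 lay at the background; the gap was -3.28 ± 1.16 with signals under the background set to it. As deposited, the gap between them was -3.45 ± 1.25 over 8 pools and below 0 in each (exact sign-flip permutation test, p = 0.00781, adjusted over the 6 pairs tested 0.0156). Olfr472 (MOR204-5) and Olfr473 (MOR204-4), at 84.3%, both rose, by 3.79 ± 0.27 and 3.27 ± 1.37 under clean air. With octanoic acid they rose by 4.03 ± 0.92 and 2.23 ± 0.94. Their gap of 1.16 ± 1.34 was above 0 in 7 of 8 pools (exact sign-flip permutation test, p = 0.0391, adjusted over the 6 pairs tested 0.0469), and it was 0.52 ± 1.20 under clean air against 1.80 ± 1.29 with octanoic acid.

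In the other 4 pairs both members lay on the same side of 0 on average, as did Olfr494 with Olfr497 and Olfr472 with Olfr473. Olfr495 (MOR204-37) and Olfr498 (MOR204-36), at 85.0% identity, were both lower in GFP+ cells, at -2.90 ± 1.48 and -1.83 ± 1.59 under clean air as deposited. Neither sorted sample of Olfr498 rose clear of the background, so it has no fold and the gap of this pair was not tested. Its call was lost without the first or the third clean-air pool, and with octanoic acid without any 1 octanoic acid pool. Olfr527 and Olfr531 of MOR251, at 83.4%, rose by 3.51 ± 0.40 and 2.08 ± 0.66 under clean air and differed by 1.41 ± 0.35, above 0 in 8 of 8 pools (exact sign-flip permutation test, p = 0.00781, adjusted over the 6 pairs tested 0.0156). Olfr525 and Olfr532, also MOR251 and sharing 83.7%, differed by 0.22 ± 1.13 over 8 pools, which is within the spread (exact sign-flip permutation test, p = 0.617, adjusted over the 6 pairs tested 0.617). Olfr469 and Olfr470 of MOR204, at 88.8% the most similar pair, passed no test in either enrichment and differed by -0.31 ± 0.28 (exact sign-flip permutation test, p = 0.0391, adjusted over the 6 pairs tested 0.0469). Identity of the window and size of the gap were not tested against each other.

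**Figure D4:**
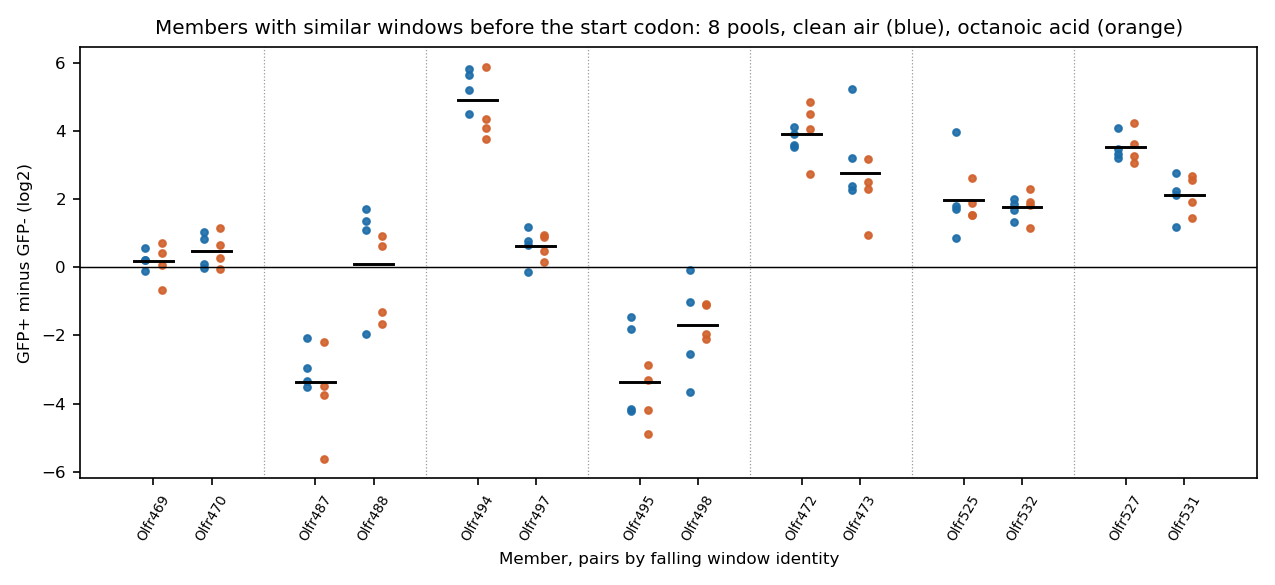
Enrichment (log2 GFP+ minus log2 GFP-, y axis) of the members of the 7 pairs with at least 80% window identity (x axis, by falling identity), each point 1 pool, clean air in blue and octanoic acid in orange, the bar the mean of 8 pools. Olfr494 lies above Olfr497 and Olfr487 below Olfr488 in every pool, whereas Olfr525 and Olfr532 overlap.

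The odorant question of the design is whether pulses of octanoic acid changed these receptors. None of the 107 receptors passed the test in any of the 3 comparisons of octanoic acid with clean air, and neither did any of the 19505 genes (0.0% called by limma in each direction). For the odor effect on enrichment, the octanoic acid pools minus the clean-air pools, the smallest adjusted p of a member was 0.940. At an unadjusted p under 0.05, 8 members passed, 1 higher and 7 lower, against 4.47% of all genes, 382 higher and 489 lower. Of the 984 other receptors 75 passed, 19 higher and 56 lower. With the replicate number as a block 16 members passed, 3 higher and 13 lower, against 6.2% of all genes. Without the second octanoic acid pool 16 members passed again, against 8.83% of all genes. The median odor effect of the members was -0.11, that of the other receptors -0.13 and that of all genes -0.03. The sign of the members' median was not stable: it became 0.03 when each array was centred on the mean of all receptors and 0.07 without the third octanoic acid pool and the fourth clean-air pool.

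The member with the smallest p was Olfr506 (MOR204-23). Its clean-air arrays read 12.53, 12.31, 11.82 and 12.12 for GFP+ and 8.64, 8.56, 8.93 and 6.97 for GFP-, and its octanoic acid arrays read 12.13, 12.31, 11.23 and 11.45 for GFP+ and 9.61, 9.56, 9.65 and 8.58 for GFP-. It was higher in GFP+ cells under both treatments, by 3.92 ± 0.93 and 2.43 ± 0.58, and its odor effect was -1.49 (95% interval -2.45 to -0.52) with a limma adjusted p of 0.94. The pool differences with octanoic acid, 2.51, 2.75, 1.58 and 2.87, all lay below those under clean air, 3.89, 3.76, 2.89 and 5.14, the highest of the former by a narrow margin. The value of 5.14 came from the fourth clean-air pool. On the GFP- array of that pool Olfr506 read 6.97, close to that array's high background of 6.77. The next members were Olfr700 at -0.92 (95% interval -1.51 to -0.32), Olfr704 at -1.07 (95% interval -1.86 to -0.28) and Olfr518 at -1.06 (95% interval -1.87 to -0.25). Olfr700 lay under the background in all groups, so its values carry no fold.

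Within GFP+ cells alone 0 members passed without adjustment, against 3.67% of all genes, and the smallest adjusted p was 0.955. With the replicate block 7 did, 1 higher and 6 lower, against 5.42% of all genes. When 1 pool was left out 1 to 5 did, against 2.20% to 6.32% of all genes. The members with the smallest p there were Olfr704 at -0.65 (95% interval -1.35 to 0.05), Olfr695 at 0.44 (95% interval -0.08 to 0.95), Olfr495 at -1.02 (95% interval -2.32 to 0.28) and Olfr524 at -0.94 (95% interval -2.19 to 0.31). Within GFP- cells 8 members passed without adjustment, 6 higher and 2 lower, against 3.8% of all genes, and the smallest adjusted p was 0.985. With the replicate block these were 15, 12 higher and 3 lower, against 5.29% of all genes. When 1 pool was left out 5 to 12 passed, against 2.79% to 7.17% of all genes. Those with the smallest p were Olfr700 at 0.63 (95% interval 0.20 to 1.06), Olfr61 at 1.01 (95% interval 0.22 to 1.79), Olfr493 at 0.93 (95% interval 0.18 to 1.67) and Olfr506 at 1.07 (95% interval 0.20 to 1.94). A missed threshold does not show that octanoic acid left a receptor unchanged: the 95% intervals of the odor effect had a median half-width of 0.858, and 27 of the 107 reached 1 log2, a 2-fold rise in enrichment, or more. For 80 receptors the upper bound lay under 1, but for only 38 did the whole interval lie within -1 to 1, so falls were bounded less often than rises. In GFP+ cells 95 of 107 intervals had an upper bound under 1 log2, and 71 lay within -1 to 1.

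**Figure D5:**
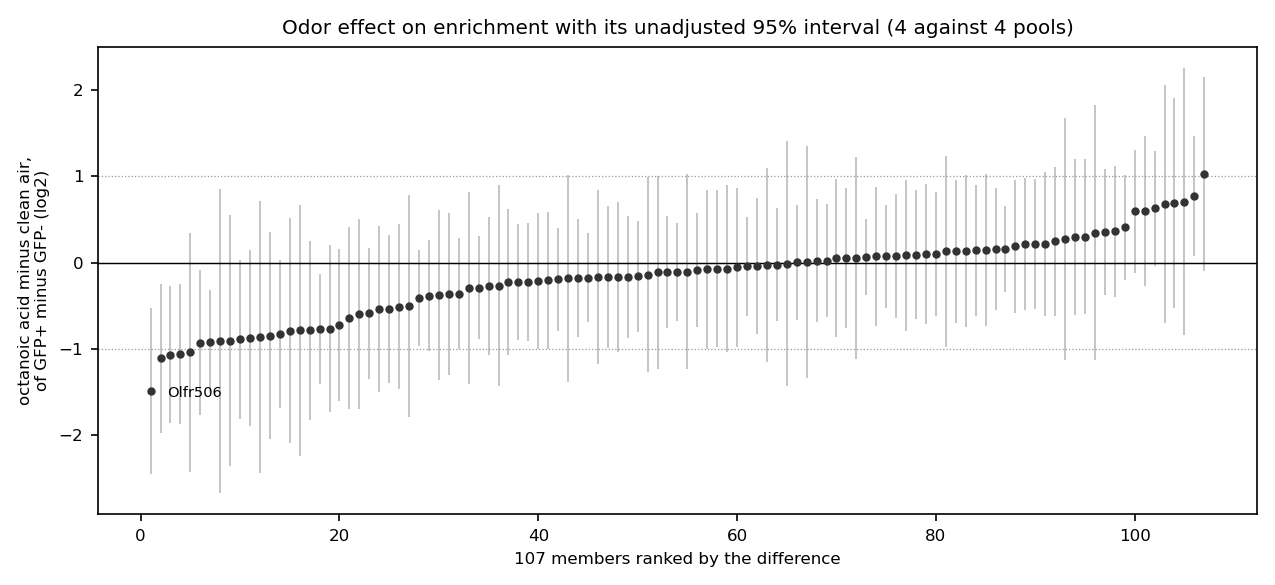
Odor effect on enrichment (octanoic acid minus clean air, log2, y axis) of the 107 receptors ranked by it (x axis), with unadjusted 95% intervals from limma over 4 against 4 pools and dotted lines at -1 and 1. Values run from -1.49 for Olfr506 to 1.03 for Olfr294, which lay at the background, and no receptor passed the test after adjustment.

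Of 17 measured genes of olfactory transduction 5 were higher and 1 lower in GFP+ cells under each treatment, with medians of 0.26 and 0.29. They included Ano2, the calcium-activated chloride channel, at 0.50 ± 0.13 under clean air, Pde1c, a phosphodiesterase, at 0.78 ± 0.15, and Slc8a1, a sodium-calcium exchanger, at 1.27 ± 0.05. Gnas, the other stimulatory G protein subunit, had the lower value, -3.74 ± 0.29. Of 8 genes of receptor trafficking 0 passed under either treatment, and of 13 genes linked to receptor choice 0 were higher and 1 lower under clean air and 0 higher and 2 lower with octanoic acid. Lbr, the lamin B receptor, was the lower gene common to both, at -1.98 and -2.54. Over all genes 5.83% were higher and 9.58% lower under clean air, and 6.26% higher and 10.9% lower with octanoic acid.

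The sorted samples also differed in other cell types. S100a5, which sets the gate and is no independent finding, was 1.32 ± 0.22 higher in GFP+ cells under clean air and 1.53 ± 0.52 with octanoic acid. Of 8 markers of mature sensory neurons 1 was higher (Ano2), and Omp, the olfactory marker protein, differed by 0.13 ± 0.17. All 4 measured leukocyte and all 4 neutrophil markers were lower in GFP+ cells under both treatments: mean neutrophil marker levels were 6.54 to 8.47 log2 on the clean-air GFP+ arrays and 15.7 to 17.3 on the GFP- arrays. Of 5 immature neuron markers 3 were lower, Gap43, Gng8 and Stmn2, and the markers' mean level was 11.5 to 11.9 against 13.2 to 13.7. Bowman gland and microvillous cell markers were lower as well, 3 of 3 and 2 of 2, as were 2 of 4 basal cell markers and 2 of 5 sustentacular markers under clean air. None of these genes passed the test for an odor effect. The part of the cell make-up in the receptor results was not tested.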

How the data were processed

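The authors deposited a table of log2 signals by probe set, and the submitters' processing notes name Affymetrix Expression Console. Its version, summary method and background step are not given in the sources used here, and a log2 scale is assumed because values lie between 2.13 and 19.5. Keeping the brightest of each gene's probe sets left 19505 named genes, and each receptor has 1 probe set. All 107 matched RefSeq (GRCm38.p6) by Entrez identifier and symbol, which gave MOR names, gene order and sequence windows. The files name no genome build, so no other coordinates are given.

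Differences within pools were tested with limma 3.58.1 in R 4.3.3 (lmFit, eBayes, two-sided), both treatments sharing a variance estimate, after tests on simulated data. Octanoic acid was also set against clean air within GFP+ and within GFP- arrays, 4 against 4. Pools hold different mice, per the labels. Odor and vehicle pools share replicate numbers: over all genes the deviations of same-numbered pools correlated at 0.179, 0.110, 0.237 and 0.100 for the differences, and at 0.371, 0.100, 0.219 and 0.138 for the GFP+ arrays.

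The named receptors have the 8 largest rises or falls per enrichment above the background, the 4 smallest p per odor comparison, the 3 dimmest or brightest probe sets, or a partner of similar sequence. Pairs were to be taken by protein identity; protein sequences were not used here, and windows before the start codon, aligned globally with Biopython 1.88, took their place after the values were seen. Grouping by gene order was also chosen then, in place of runs of receptor numbers, by which the 17 receptors numbered 290 to 310 had 2 higher and 10 lower under clean air. Receptors named to complete a family, a block or a count were chosen after their values were seen. The members and gene lists were chosen with earlier results of these data known. Alternatives were the scaling, filters, probe set rule, variance prior, replicate block, pools left out and, added after seeing the data, only members with class II family numbers and, for the pairs, signals floored at the background.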

Additional observations from a re-analysis of the deposited data

Results flagged for a closer look

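In 2 of 82 groups of 4 pools examined, 1 pool lay far from the other 3 by Dixon's criterion, which chance flags in about 1 of 20 groups. Olfr481 had an enrichment of 5.97 in the second octanoic acid pool, against 4.07 to 4.26 in the other octanoic acid pools. Olfr488 had an enrichment of -1.97 in the third clean-air pool, against 1.08 to 1.70 in the other clean-air pools. The cause was not tested in either case.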

How the results depend on the processing

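The counts of called receptors in the 5 comparisons stayed within 1.5 times the reported ones under every alternative run. Leaving out 1 pool gave 59 to 69 called receptors under clean air and 56 to 72 with octanoic acid, against 67 and 71, and 0 in the odor comparisons. Unpaired tests, with no replicate block, called 62 and 63. With the replicate number as a block the odor comparisons called 0 members, with smallest adjusted p of 0.781, 0.826 and 0.915 for the odor effect, GFP+ and GFP- cells, and the block changed no adjusted call; it raised the counts at an unadjusted p under 0.05 from 8, 0 and 8 to 16, 7 and 15. For the GFP- arrays the same-numbered pools correlated at 0.408, 0.100, -0.0986 and 0.153. With 1 pool left out, 9 of the 107 receptors changed sign under clean air and 16 with octanoic acid, none of them called. Olfr1348 read 0.18 under clean air and 0.19 with octanoic acid after array median centring, and 0.059 with octanoic acid without octanoic acid pool 3 and clean-air pool 4. Olfr503 read -0.029 with octanoic acid after quantile normalization. Without 1 pool the values under clean air ran from -0.82 to 0.077 for Olfr294, -0.21 to 0.10 for Olfr1348, -0.27 to 0.59 for Olfr530 and -0.14 to 0.89 for Olfr5, among others. With octanoic acid they ran from -0.19 to 0.36 for Olfr310, -0.30 to 0.32 for Olfr503, -0.34 to 0.059 for Olfr1348, -0.056 to 0.41 for Olfr469 and -0.79 to 0.070 for Olfr488, among others. Of the 67 calls under clean air 12 were lost without some single pool, and of the 71 with octanoic acid 18. Setting signals under the background to it, an alternative added after seeing the data, changed no call among the 6 pairs tested. The cause was not tested. The negative controls reached 10.4 log2 at their 95th percentile, hence a receptor that reads above the background median need not be expressed, and the gap of a receptor at the background is a bound.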
